A study of Mus musculus with 12 samples.

Results

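Gm48752, Gm32312, Gm15943 and Atp2a1 are 4 rows, of 55487, in a table of gene counts from mouse nasal tissue. They were chosen by name, selected on their counts and calls in an earlier reading of the same table, as rows of skeletal muscle genes: Gm48752 lies opposite Mybpc1, Gm32312 opposite Ostn, Gm15943 opposite Klhl38, and Atp2a1 opposite Rabep2 on the other DNA strand. All 4 were deep enough to be tested, among 13181 rows. Their values in the comparisons below chose them, so those values are a description.

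The series title concerns nasal inflammatory dysfunction after diesel particles, and the exposure is labelled KDP20. All animals were 6 week old male C57BL/6 mice, and the tissue is labelled nasal, with nasal epithelium as the cell type. The 12 libraries form 3 groups of 4, namely PBS vehicle at day 10 (replicates 2, 4, 5 and 6), KDP20 at day 5 (replicates 5, 6, 7 and 8) and KDP20 at day 10 (replicates 1, 2, 3 and 5). There was no vehicle group at day 5, so exposure and day cannot be told apart in the comparison of day 5 with vehicle, and no label says that each library came from a separate animal.

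Skeletal muscle fibres contract when myosin thick filaments pull on actin thin filaments inside the sarcomere. Calcium released from the sarcoplasmic reticulum through the ryanodine receptor starts the contraction, and the pump encoded by Atp2a1 returns the calcium to end it. Small striated muscles lie around the snout and nostril, beside the cartilage and mucosa that a nasal dissection takes. Mybpc1 encodes slow myosin-binding protein C, a thick filament protein. Ostn encodes osteocrin, a hormone secreted by muscle and bone. Klhl38 is a kelch-family gene expressed in muscle, and Rabep2 encodes a protein of endosome fusion that is not particular to muscle.

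The overlap of each row with the gene opposite differed in size. The strand setting of the counting is not given in the sources used here, so a count in a shared exon cannot be assigned to one gene or the other. Coordinates are GRCm38 with GENCODE M21 annotation. The map of the loci shows how little of Gm48752 and Gm32312 is shared and how much more of Gm15943 and Atp2a1 is.

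**Figure D1:**
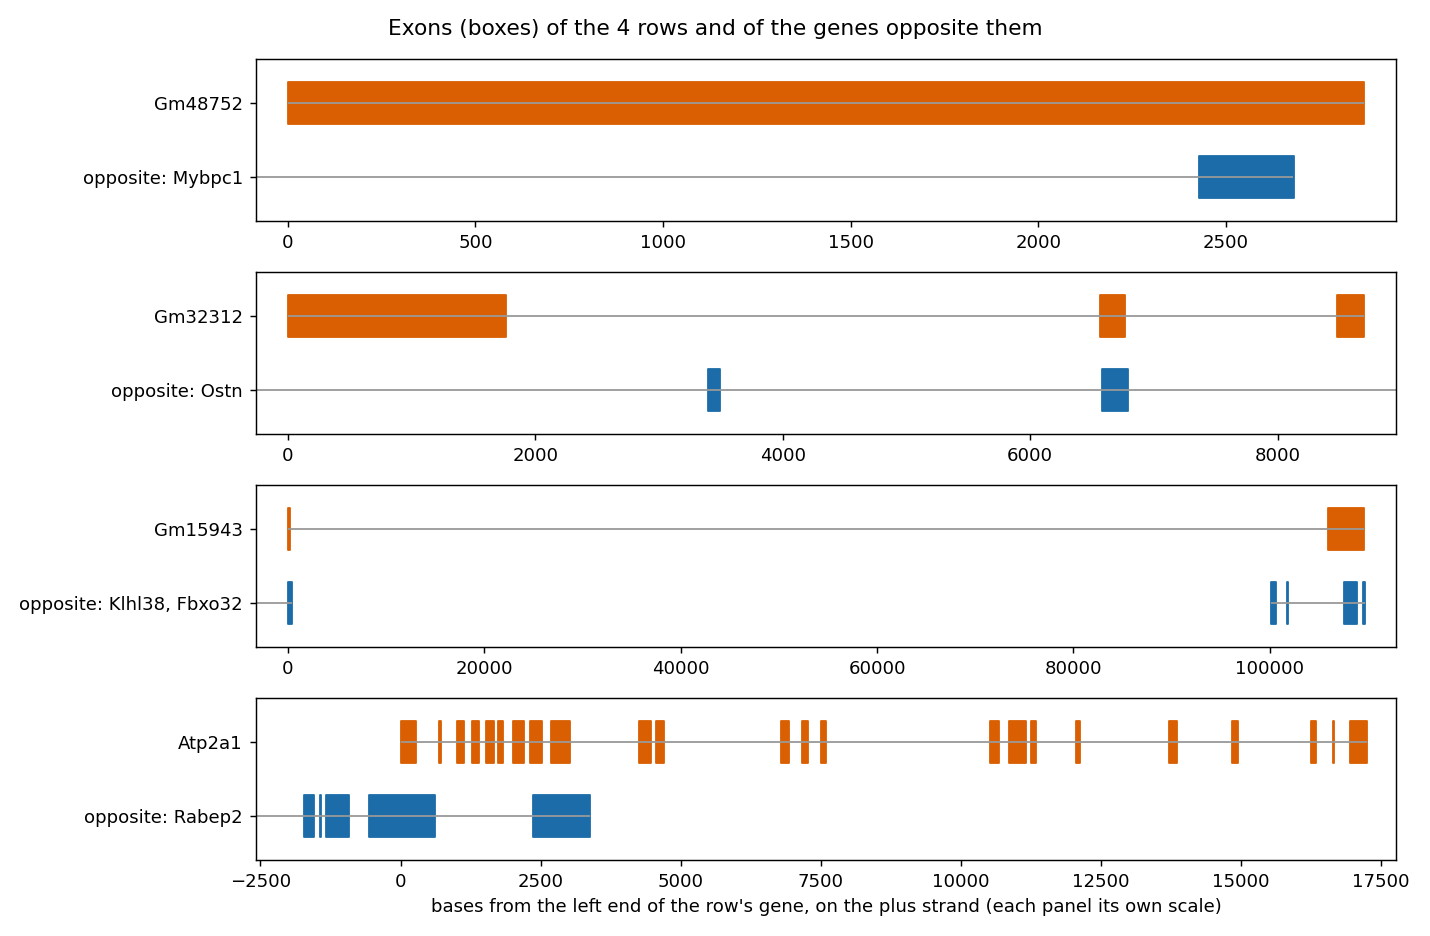
Exons of the 4 rows and of the genes opposite, drawn as boxes. Each panel has its own scale, in bases from the left end of the row's gene. Gm48752 and Gm32312 share 252 and 184 bases with the gene opposite, Atp2a1 shares 763 and Gm15943 shares 1446 with Klhl38.

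Gm48752 (chr10:88602472-88605340, plus strand) is a single exon of 2869 bases, annotated as a transcript still to be experimentally tested. Mybpc1 (chr10:88518279-88605152, minus strand) starts inside it. Their exons share 252 bases, or 8.78% of the row, of which 25 are coding and 227 untranslated in Mybpc1. Another 2429 bases of the row lie in Mybpc1 introns and 188 lie before the Mybpc1 start. The shared coding bases are shown on the Mybpc1 strand because they hold its start codon, in capitals (chr10:88604901-88604925).

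Mybpc1: ATGccagaacccactaagaaagagg

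The 188 bases of Gm48752 before the Mybpc1 start (chr10:88605153-88605340, Mybpc1 strand) are shown because the counted row covers the bases just upstream of a muscle gene. Capitals mark CAGCTG, an E-box that reads the same on both strands.

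Mybpc1 upstream: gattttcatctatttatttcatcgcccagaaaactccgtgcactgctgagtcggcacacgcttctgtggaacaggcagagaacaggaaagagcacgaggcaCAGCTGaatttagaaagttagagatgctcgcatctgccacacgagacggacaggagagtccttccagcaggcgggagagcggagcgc

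In the RefSeq promoter table for GRCm38.p6, which gives 300 bases around each start, CAGCTG occurred in 16.3% of 32851 promoters and in 40 of 91 promoters of the skeletal muscle genes listed here (44.0%). The Mybpc1 and Atp2a1 promoters each held 1 copy, and the windows of Rabep2 and Gm32312 held none. Ostn, Klhl38, Gm48752 and Gm15943 had no entry there.

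Gm32312 (chr16:27317944-27326641, minus strand) has 3 exons and 2187 bases. It shares 184 bases with Ostn (chr16:27307489-27351212, plus strand), or 8.41% of the row, and all 184 are coding in Ostn. The other 2003 bases lie in Ostn introns. The shared stretch is given on the Ostn strand (chr16:27324523-27324706), as the sole part of the row that spliced osteocrin mRNA covers; no letters are capitalised.

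Ostn: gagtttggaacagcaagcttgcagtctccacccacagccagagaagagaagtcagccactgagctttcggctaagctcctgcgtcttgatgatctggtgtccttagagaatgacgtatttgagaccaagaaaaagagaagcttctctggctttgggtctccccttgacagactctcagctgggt

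Gm15943 (chr15:58214475-58324053, plus strand) has 2 exons and 3821 bases. It shares 1446 bases with Klhl38 (chr15:58314573-58324169, minus strand), which is 37.8% of the row, and 1350 of these are coding in Klhl38. At its other end it shares 186 bases, or 4.87%, with Fbxo32, the muscle ubiquitin ligase atrogin-1 (chr15:58175879-58214932, minus strand). The first 150 coding bases of Klhl38 (chr15:58323182-58323331) lie in the shared stretch, with the start codon in capitals.

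Klhl38: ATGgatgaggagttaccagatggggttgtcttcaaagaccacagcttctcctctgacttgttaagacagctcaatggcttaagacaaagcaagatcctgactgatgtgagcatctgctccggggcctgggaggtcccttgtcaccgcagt

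Atp2a1 (chr7:126445858-126463108, minus strand) is the only protein-coding gene of the 4, with 3477 exonic bases. It shares 763 bases with Rabep2 (chr7:126428759-126449245, plus strand), or 21.9% of the Atp2a1 exons, in stretches of 269, 158 and 336 bases. The middle stretch is shown on the Atp2a1 strand (chr7:126448225-126448382) because calcium pump mRNA counted without regard to strand, or on the opposite strand, could fall into the Rabep2 row there; no letters are capitalised.

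Atp2a1: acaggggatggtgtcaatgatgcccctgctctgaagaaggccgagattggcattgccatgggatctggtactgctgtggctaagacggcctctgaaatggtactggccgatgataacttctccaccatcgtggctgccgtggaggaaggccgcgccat

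Library totals ran from 1658420 to 3227138 counts, so 3 counts, the floor that a count of 0 allows, stood for 0.839 to 2.06 CPM. CPM here are counts scaled to the TMM-adjusted library size, and errors are SDs over 4 libraries. Of 14 nasal epithelium markers in own rows, 10 were over 20 counts in every library. Among them was olfactory marker protein (Omp), at 22 to 135. Cnga2, at 0 to 9, and Scgb1a1, at 0 to 1, stayed under 10, and Krt5 had 3 to 25. The 4 rows opposite genes of this list summed to 27890 to 36370 CPM in vehicle, and the own rows to 1207 to 1714. Gm15883, opposite Cyp2f2, had 27656 to 84309 counts, and the Cyp2f2 row had 46 to 331. Gm44323, opposite Krt5, had 605 to 2256 counts. Why these rows opposite held more than own rows was not tested. A single row, CT010467.2, held 7.25% to 12.6% of counts in the 4 vehicle libraries, the 4 day 5 libraries and day 10 replicate 1, and 17.9% to 25.5% in day 10 replicates 2, 3 and 5. In bulk tissue, fewer cells of a type and less RNA per cell cannot be told apart.

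Rows opposite muscle genes were used as a measure of skeletal muscle RNA, a choice made with their variation between libraries known. Whether the counts in them come from the muscle genes was not tested, since the strand setting is unknown. The muscle level of a library is the mean log2 CPM of 18 tested rows that lie opposite genes of 5 skeletal muscle lists, with the 4 rows described here, their partners and Rabep2 left out. In vehicle it was 2.46, 3.60, 2.47 and 2.50 for replicates 2, 4, 5 and 6. At day 5 it was 2.33, 4.70, 2.30 and 5.09 for replicates 5, 6, 7 and 8. At day 10 it was 4.57, 2.34, 2.48 and 2.42 for replicates 1, 2, 3 and 5. Day 5 replicates 8 and 6 and day 10 replicate 1 stood high, vehicle replicate 4 stood between, and the other 8 libraries lay close together whatever their exposure. Each group thus held at least 1 library with a raised level, and the groups overlapped.

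Its variation lay mostly in 8 of the 18 rows, which had day 5 replicates 8 and 6 and day 10 replicate 1 as their 3 highest libraries (44.4%, against 0.539% of all tested rows). They were Myhas (opposite the fast myosin Myh1), Ube2c (opposite troponin C, Tnnc2), Gm13938 (opposite titin, Ttn), Gm26604 (opposite the ryanodine receptor Ryr1), Gm37759 (opposite the calcium channel Cacna1s), Gm17224 (opposite calsequestrin, Casq1), A930016O22Rik (opposite creatine kinase, Ckm) and Gm49540 (opposite myoglobin, Mb). Myhas had 223 to 306 counts in those 3 libraries, 83 in vehicle replicate 4, 1 in vehicle replicate 6 and 0 in the other 7. Gm13938 had 384 to 521 counts in the same 3 libraries, 117 in vehicle replicate 4 and 3 to 17 elsewhere. Libraries of the same group thus differed widely in these rows. The 3 libraries were picked as the highest of a level that the 8 rows help to make up, so nothing is read from the share of 44.4%.

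**Figure D2:**
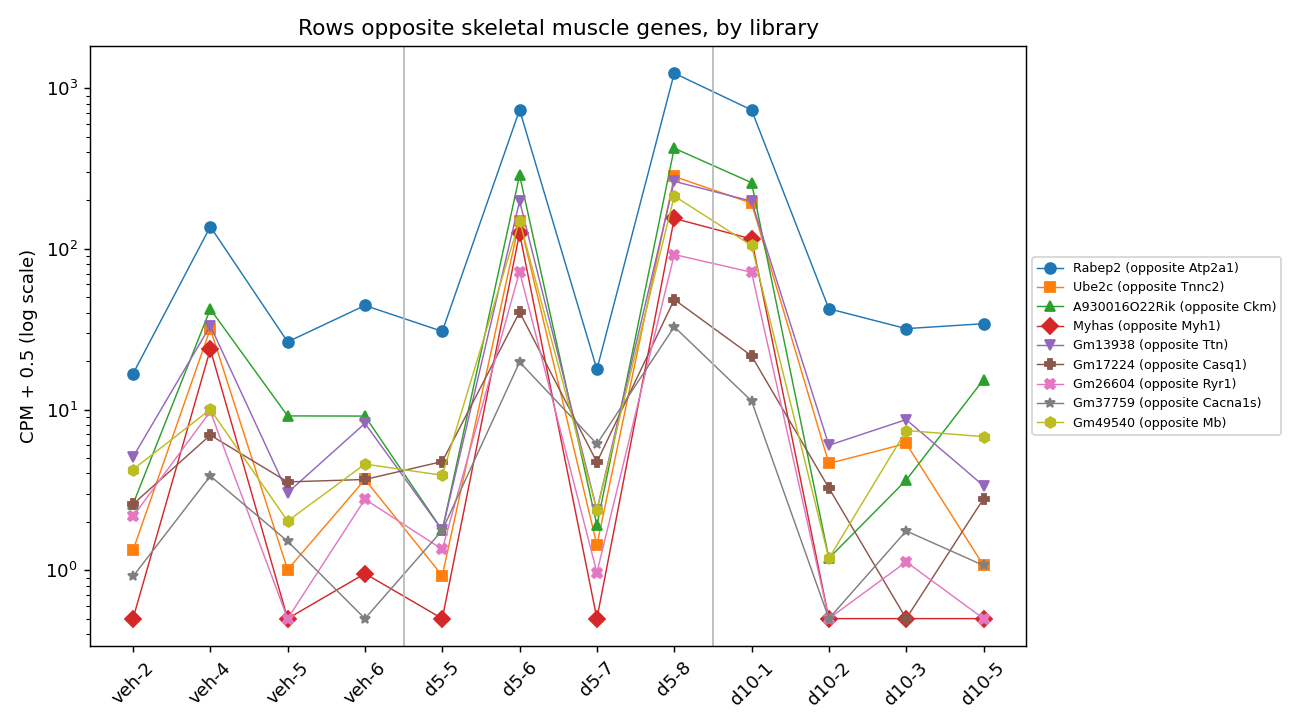
Level of rows opposite skeletal muscle genes in each of the 12 libraries, with libraries named by group and replicate (veh, d5, d10). The scale is CPM with a small constant added, on a log axis. The rows drawn are the 8 named above and Rabep2, all picked for having the same 3 libraries highest. Day 5 replicates 6 and 8 and day 10 replicate 1 are thus the highest in every row drawn. Vehicle replicate 4 lies between them and the rest, except in Gm37759, where day 5 replicate 7 (5.61 CPM) is next.

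The mean of the genes' own rows did not separate those libraries. Over 33 own rows the mean log2 CPM ran only from 4.01 to 4.31. The same 3 libraries were on top in 2 of the 33 (6.06%, against 0.539% of all tested rows). These were Ttn, at 190 to 234 CPM in the 3 libraries and 103 to 164 in the others, and the energy metabolism gene Pgam2. Pgam2 was at 52.4 to 66.9 CPM in the 3 libraries and 25.8 to 50.1 in the others. Of the 105 listed muscle genes, 6 had 0 counts in their own row in all 12 libraries, 53 stayed under 10 counts in every library and 14 were over 20 in every library. The fast myosins Myh1, at 0 to 17 counts, and Myh4, at 0 to 28, were low. Titin (Ttn), at 150 to 509 counts, nebulin (Neb), at 124 to 517, Mybph, at 111 to 390, and Casq1, at 50 to 176, were well counted. Mybpc1, with 0 to 4 counts, and Ostn, with 0 to 2, were too low to test.

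Gm48752, opposite the slow myosin-binding protein C gene, had 2.90, 4.20, 3.55 and 4.53 CPM in vehicle replicates 2, 4, 5 and 6. At day 5 it had 8.07, 18.8, 7.94 and 36.3 CPM in replicates 5, 6, 7 and 8. At day 10 it had 8.23, 2.75, 3.14 and 6.85 CPM in replicates 1, 2, 3 and 5. All 4 day 5 libraries lay above all 4 vehicle libraries, and the highest were replicates 8 and 6, the libraries with the highest muscle levels. The next was day 10 replicate 1, the third library with a high muscle level, barely above day 5 replicates 5 and 7, where the muscle level was lowest. Vehicle replicate 4, with a muscle level of 3.60, was not raised. These levels rest on 4 to 72 counts per library. Group means were 3.80 ± 0.719 CPM in vehicle, 17.8 ± 13.3 at day 5 and 5.24 ± 2.72 at day 10 (SD, n = 4), and vehicle and day 10 overlapped.

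Gm32312, opposite the osteocrin gene, had 4.57, 3.64, 7.11 and 3.17 CPM in vehicle. At day 5 it had 18.3, 14.4, 14.5 and 19.6 CPM. At day 10 it had 13.4, 2.75, 8.16 and 4.0 CPM. The 4 day 5 libraries were close to each other and above every other library, although their muscle levels ranged from 2.30 to 5.09. Day 5 replicate 5, at a muscle level of 2.33, had 18.3 CPM, and replicate 8, at 5.09, had 19.6. Among day 10 libraries replicate 1 was the highest, and the day 10 and vehicle groups overlapped. Means were 4.62 ± 1.76 CPM in vehicle, 16.7 ± 2.66 at day 5 and 7.07 ± 4.80 at day 10 (SD, n = 4), on 4 to 43 counts per library.

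Gm15943, opposite the kelch gene Klhl38, had 222, 187, 248 and 230 CPM in vehicle. At day 5 it had 342, 391, 311 and 293 CPM. At day 10 it had 299.9, 355, 306 and 406 CPM. Every KDP20 library lay above every vehicle library, and days 5 and 10 overlapped. The day 10 library with the high muscle level, replicate 1, was the lowest of its group, and day 5 replicate 8 was the lowest of its own. Means were 222 ± 25.7 CPM in vehicle, 334 ± 42.6 at day 5 and 342 ± 49.3 at day 10 (SD, n = 4). The own rows of the genes opposite were low. The Klhl38 row had 7 to 23 counts with means of 5.81, 6.35 and 5.51 CPM in vehicle, day 5 and day 10. The Fbxo32 row had 6 to 30 counts, with means of 7.28, 8.00 and 10.7 CPM in the same order. edgeR called neither in any of the 3 comparisons.

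Atp2a1, the calcium pump of fast fibres, had 104, 109, 101 and 82.9 CPM in vehicle. At day 5 it had 78.6, 74.1, 73.3 and 78.1 CPM. At day 10 it had 93.1, 172, 153 and 173 CPM. The row was not raised in the libraries with a high muscle level: day 5 replicates 6 and 8 were like replicates 5 and 7, and day 10 replicate 1 was the lowest of its group and lay among vehicle libraries. Its 3 highest libraries, day 10 replicates 2, 3 and 5, were also those in which CT010467.2 held 17.9% to 25.5% of counts, and the part of that row in the result was not tested. Means were 99.2 ± 11.3 CPM in vehicle, 76.0 ± 2.70 at day 5 and 148 ± 37.5 at day 10 (SD, n = 4).

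**Figure D3:**
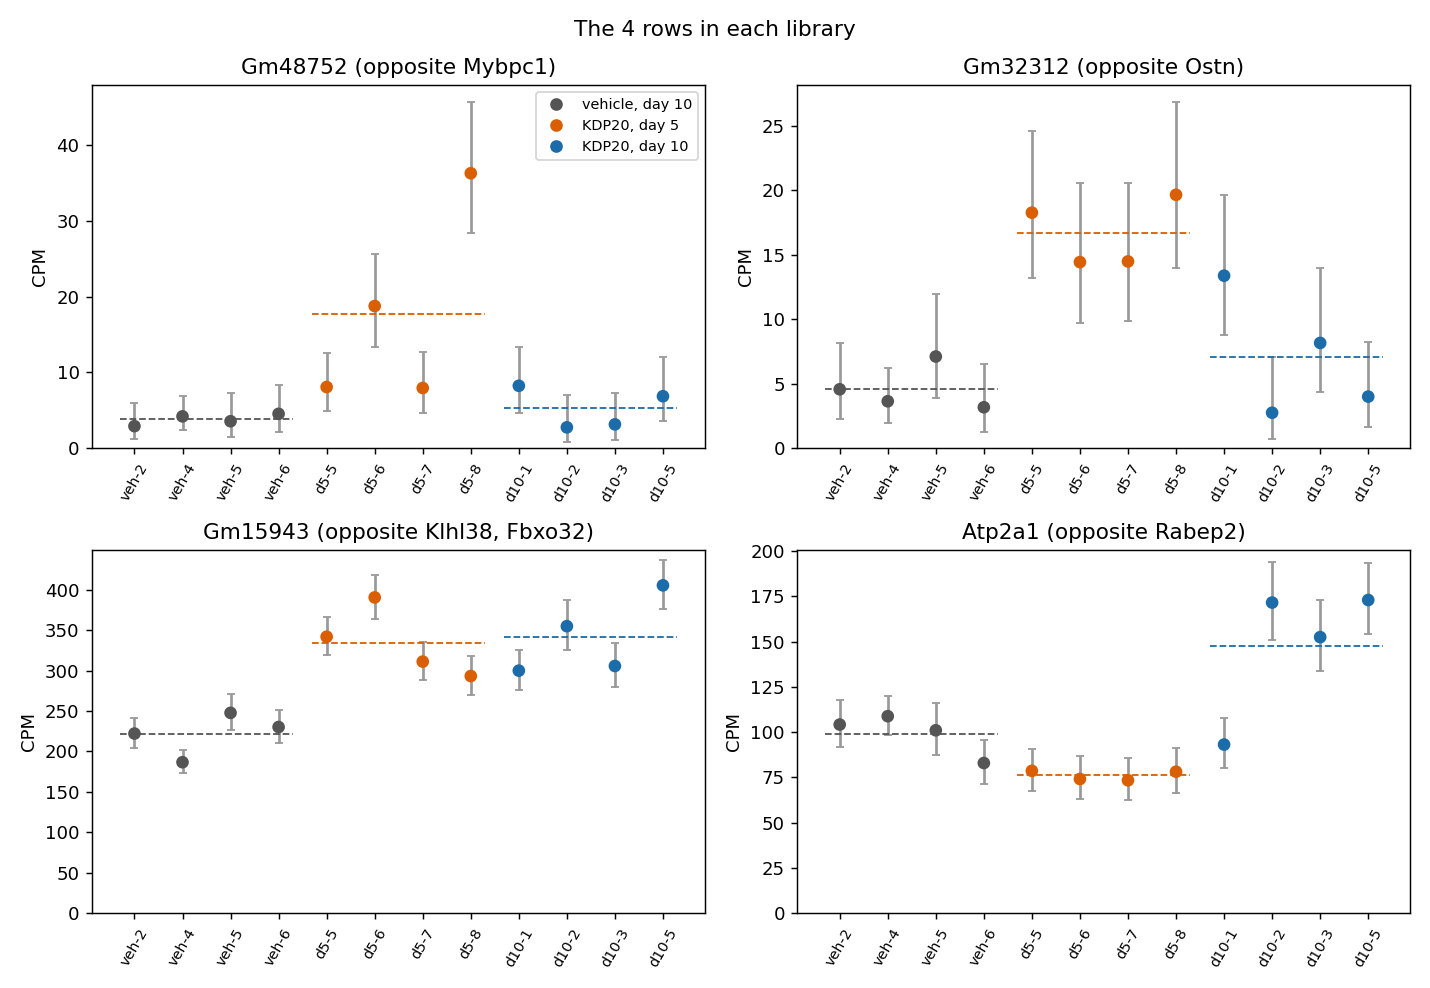
CPM of each row in the 12 libraries, with libraries named by group and replicate, exact 95% Poisson intervals for counting error as bars and group means as dashes. Gm15943 is above vehicle in all 8 KDP20 libraries, Gm32312 in all 4 day 5 libraries, and Atp2a1 is highest in day 10 replicates 2, 3 and 5.

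The Rabep2 row, opposite Atp2a1, did what the Atp2a1 row did not. It had 39, 490, 51 and 97 counts in vehicle, 71, 1522, 37 and 2458 at day 5, and 1421, 61, 50 and 59 at day 10. Day 5 replicates 8 and 6 and day 10 replicate 1 were its 3 highest libraries, followed by vehicle replicate 4, the order of the muscle level. In CPM, Rabep2 spanned 76.5-fold between its lowest and highest libraries, against 13.2-fold for Gm48752, 7.16-fold for Gm32312, 2.36-fold for Atp2a1 and 2.17-fold for Gm15943. There were 15.9 Rabep2 counts for each Atp2a1 count in day 5 replicate 8, 9.88 in day 5 replicate 6, 7.85 in day 10 replicate 1 and 1.26 in vehicle replicate 4. In the other 8 libraries the ratio was 0.155 to 0.530. The 2 rows share 763 bases, and RNA of the 2 genes cannot be told apart there.

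Levels were also scaled per kb of each row's full exon length. That length takes no account of the part shared with the gene opposite, from 8.41% of Gm32312 with Ostn to 37.8% of Gm15943 with Klhl38. On this scale Gm15943 was the most abundant of the 4 rows, at 58.0 CPM per kb in vehicle, 87.5 at day 5 and 89.4 at day 10. Atp2a1 followed at 28.5, 21.9 and 42.4 CPM per kb. Gm32312 was at 2.11, 7.64 and 3.23 CPM per kb, and Gm48752 at 1.32, 6.19 and 1.83.

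The slope of each row on the muscle level, in a model that also held the 3 groups, was a measure of how far the row followed that level. It was 0.60 log2 units per unit of muscle level (SE 0.15) for Gm48752 and 0.18 (SE 0.15) for Gm32312. It was -0.05 (SE 0.06) for Gm15943 and -0.10 (SE 0.07) for Atp2a1. For Rabep2, a row left out of that level, it was 2.04 (SE 0.08). The 8 rows named above are part of the level and were picked for their pattern, so their slopes of 1.36 to 4.37 are no yardstick, and the other 10 rows of the level had slopes of -0.22 to 0.42. Only Gm48752 of the 4 rows thus had a slope larger than 2 of its standard errors, and it was below that of Rabep2. Since 10 rows of the level itself had slopes of -0.22 to 0.42, a small slope does not tell whether a row's counts come from muscle. Whether the name skeletal muscle genes fits the 4 rows was not tested, and they are called here by their own names.

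**Figure D4:**
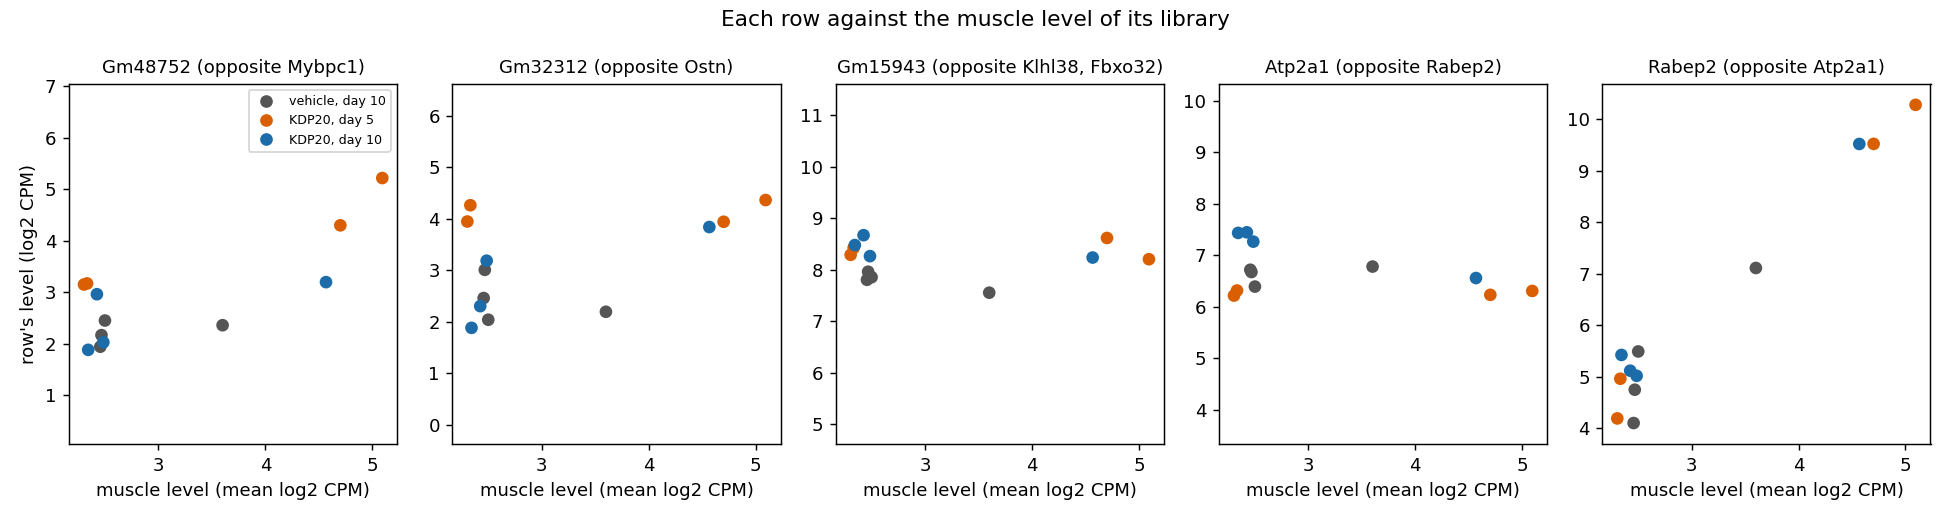
Log2 CPM of the 4 rows and Rabep2 against the muscle level of each library, one point per library and coloured by group. Rabep2 rises along the whole axis, Gm48752 rises in part, and Gm32312 is about as high in the 2 day 5 libraries at the left (14.5 and 18.3 CPM) as in the 2 at the right (14.4 and 19.6 CPM).

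In the comparison of day 5 with vehicle, edgeR called 3 of the 4 rows at an adjusted p under 0.05, all higher, where it called 0.66% of all tested rows, 0.41% higher and 0.25% lower. The rule used this contrast, so nothing is read from that count. The log2 fold change was 2.19 (SE 0.47) for Gm48752, 1.87 (SE 0.40) for Gm32312 and 0.59 (SE 0.14) for Gm15943. It was -0.39 (SE 0.17) for Atp2a1, which was not called. Groups did not overlap for any of the 4 rows, as for 11.7% of all tested rows (5.86% higher at day 5 and 5.8% lower).

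In the comparison of day 10 with vehicle, which is matched on day, edgeR called 2 of the 4 rows, where it called 7.08% of all tested rows, 3.93% higher and 3.15% lower. Both were higher, by 0.63 (SE 0.14) for Gm15943 and 0.57 (SE 0.16) for Atp2a1 on the log2 scale. Gm48752, at 0.49 (SE 0.53), and Gm32312, at 0.67 (SE 0.43), were not called. Groups did not overlap for Gm15943 alone of the 4, as for 9.98% of all tested rows (4.98% higher at day 10 and 5.01% lower).

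Between day 10 and day 5, edgeR called 3 of the 4 rows, where it called 10.1% of all tested rows, 4.66% higher and 5.49% lower. Gm48752 fell by 1.70 (SE 0.47) and Gm32312 fell by 1.20 (SE 0.39) on the log2 scale, while Atp2a1 was 0.95 higher (SE 0.17). Gm15943, at 0.03 (SE 0.13), was not called. Groups did not overlap for Gm32312 and Atp2a1, as for 12.5% of all tested rows (5.71% higher at day 10 and 6.76% lower). The comparisons share libraries in pairs, so their values for a row are not independent of each other.

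Rabep2 and the 8 rows that carried the muscle level were not called in any comparison. At day 5 against vehicle the log2 fold change was 3.12 for Rabep2 (SE 0.99, edgeR adjusted p 0.114), 3.13 for Gm13938 opposite Ttn (SE 1.08, adjusted p 0.146) and 4.13 for Gm49540 opposite Mb (SE 1.05, adjusted p 0.0632). Those folds were larger than that of Gm48752, and their standard errors were larger too, because 2 of 4 day 5 libraries were high and 2 were low.

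Holding the muscle level constant changed Gm48752 most. With that level as a covariate, its log2 fold change for day 5 against vehicle was 1.48 in place of 2.19 and it was no longer called. Gm32312 was at 1.72 in place of 1.87 and was no longer called (edgeR adjusted p 0.0565). Gm15943 was at 0.64 in place of 0.59 and was still called (edgeR adjusted p 0.0448). In this model 0.41% of all tested rows were called for day 5 against vehicle. With the same covariate, Gm15943 (0.64) and Atp2a1 (0.57) were still called for day 10 against vehicle, where 9.1% of all tested rows were. Between day 10 and day 5, Atp2a1 (0.87) was still called, as 6.67% of all tested rows were, while Gm48752 (-1.18) and Gm32312 (-1.14) were not.

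Leaving out day 5 replicates 6 and 8, day 10 replicate 1 and vehicle replicate 4, an alternative chosen after seeing the data, left 2 day 5, 3 day 10 and 3 vehicle libraries. For day 5 against vehicle Gm48752 was then at 1.14, Gm32312 at 1.75 and Gm15943 at 0.51, and none of the 3 was called (edgeR adjusted p 0.490, 0.0984 and 0.110). For day 10 against vehicle Gm15943 was at 0.61 and Atp2a1 at 0.79, both called, and Gm32312 was at 0.03 in place of 0.67. Between day 10 and day 5 Gm48752 was at -0.91 and no longer called, Gm32312 at -1.73 and Atp2a1 at 1.10, both called.

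**Figure D5:**
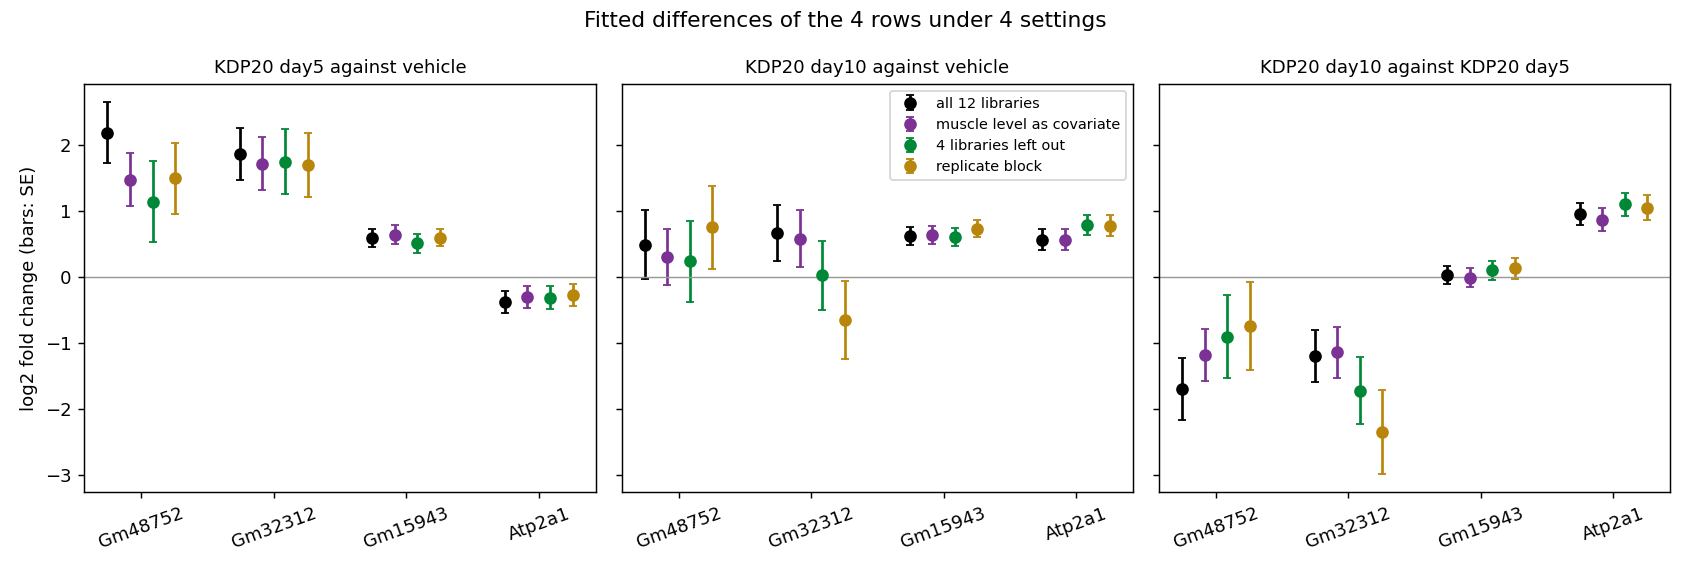
Log2 fold change of the 4 rows in the 3 comparisons with all libraries, with the muscle level as a covariate, with 4 libraries left out and with replicate number as a block; bars are standard errors. For day 5 against vehicle Gm48752 goes from 2.19 to 1.48 and 1.14 in the first 3 settings, while Gm32312 stays between 1.70 and 1.87.

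Single libraries also decided calls. For day 5 against vehicle, Gm48752 and Gm32312 were each called in 6 of 12 fits that left out 1 library, and were lost without vehicle replicate 2, 4 or 6 or day 5 replicate 5, 6 or 8. Gm15943 was called in 4 of 12, and was lost without vehicle replicate 2, 4 or 6, any 1 day 5 library or day 10 replicate 3. In the comparison of day 10 with vehicle, Gm15943 was called in 11 of 12 and lost without day 10 replicate 5. Atp2a1 was called in 2 of 12, those without day 5 replicate 8 or day 10 replicate 1. Between day 10 and day 5, Atp2a1 was called in all 12. Gm48752 was lost without day 5 replicate 8 or day 10 replicate 2 or 3, and at -1.10 in the first of these was at its smallest. Gm32312 was called in 1 of 12, the fit without day 10 replicate 1. The sign of each called value was the same in all of these fits, and those of Gm48752 and Gm32312 for day 5 against vehicle stayed within 1.59 to 2.44 and 1.75 to 2.13.

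Over the 5 skeletal muscle lists, 36 of 105 genes in the table were deep enough to test in their own rows. None of the 36 was called by edgeR for day 5 against vehicle (median log2 fold change -0.03, as over all tested rows). For day 10 against vehicle 1 was higher, Atp2a1, and 1 was lower, the muscle transcription factor Mef2c, which fell by 0.68 (SE 0.16, edgeR adjusted p 0.0136), with a median of 0.14 without Atp2a1 against -0.01 over all tested rows. Between day 10 and day 5, 3 were higher and 1 lower, with a median of 0.03 without Atp2a1 against 0.01 over all tested rows. Beside Atp2a1 these were calsequestrin Casq1 (0.73, SE 0.20, edgeR adjusted p 0.0241), Klhl30 (0.92, SE 0.23, edgeR adjusted p 0.0144) and the myosin-binding protein Mybph, which fell by 0.62 (SE 0.18, edgeR adjusted p 0.0321). Gm17224, opposite Casq1, went the other way at -1.78 (SE 0.72, edgeR adjusted p 0.121). Adora1, opposite Mybph, went the same way at -0.66 (SE 0.57, edgeR adjusted p 0.522), and neither was called. Over all tested rows edgeR called 0.66%, 7.08% and 10.1% in the 3 comparisons, in the order given here. Nothing is read from the counts of called own rows. The lists were chosen with earlier results known, and Mef2c is also expressed outside muscle.

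The rows opposite genes of the same lists held most of the variation between libraries. Of 35 such rows 22 were tested, and for day 5 against vehicle the 3 that edgeR called were Gm48752, Gm32312 and Gm15943. Those 3 were chosen on this contrast, so medians are given without them. The other 19 had a median of 0.33, against 0.17 for all rows opposite a protein-coding gene, and edgeR called none of them. At day 10 against vehicle 1 was higher, Gm15943, and 1 was lower, Clvs1, a row opposite the junctional calcium-binding gene Asph, which fell by 0.77 (SE 0.22, edgeR adjusted p 0.0341), with a median of 0.77 over the 19 against 0.08. Between day 10 and day 5 none was higher and 3 were lower, Gm48752, Gm32312 and Clvs1, with a median of -1.05 over the 19 against -0.08. The shares called over all tested rows were 0.66%, 7.08% and 10.1% in the same order, and nothing is read from the counts of called rows. Summed over the 35 rows, the level was 465 to 703 CPM in vehicle, 581 to 3377 CPM at day 5 and 529 to 2271 CPM at day 10. The groups overlapped in that sum, and its part in the called values was not tested beyond the fits above.

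Markers of neighbouring tissues were read in the same way. For heart muscle genes, the summed own rows were 40.6 to 62.2 CPM in vehicle, 29.7 to 44.7 at day 5 and 46.8 to 63.8 at day 10, and rows opposite were at 0.425 to 2.89 CPM in all 12 libraries. Smooth muscle genes had 203 to 242 CPM in own rows over the 12 libraries, and none of 7 tested was called. Rows opposite them summed to 3386 to 5040 CPM in vehicle, 4204 to 5765 at day 5 and 4104 to 5455 at day 10. Of 5 tested, none was called for day 5 against vehicle, and 2 were higher for day 10 against vehicle, Gm11946 opposite smoothelin, Smtn (0.62, SE 0.15, edgeR adjusted p 0.0179), and E130310I04Rik opposite myosin light chain kinase, Mylk (0.58, SE 0.18, edgeR adjusted p 0.0498). The same 2 were higher at day 10 than at day 5, and Gm48529 opposite Tagln fell by 0.64 (SE 0.13, edgeR adjusted p 0.00454). Adipocyte genes summed to 206 to 367 CPM in own rows, where of 2 tested 1 was called, higher at day 10 than at day 5. Cartilage and bone genes summed to 192 to 244 CPM, where of 6 tested 1 was called, lower at day 10 than at day 5. The row opposite the Schwann cell gene Prx, Gm15541, had 4.75 to 10.7 CPM in vehicle, 6.37 to 24.2 at day 5 and 8.23 to 17.7 at day 10. The relation of these values to the 4 rows was not tested. Over all tested rows, 0.66% were called for day 5 against vehicle, 7.08% for day 10 against vehicle and 10.1% between day 10 and day 5.

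The rows whose pattern was most like each of the 4 over the 12 libraries, by Pearson correlation of log2 CPM, were mostly not rows opposite muscle genes. For Gm48752 they were Mmp24 (0.92), Gm37759 opposite Cacna1s (0.86), Gm15966 opposite Olig1 (0.86), Rbm3os (0.86) and Gm44350 opposite Hist1h2ac (0.86). For Gm32312 they were n-R5s202 (0.94), Gm29491 opposite Tgfb2 (0.91), Nit1 (0.91), Gm9817 (0.91) and Tti2 (0.90). For Gm15943 they were C230034O21Rik opposite Fat4 (0.96), Ccdc167 (0.95), Gm14123 (0.95), Gm16982 (0.95) and Arhgap33 (0.95). For Atp2a1 they were Gm15917 opposite Tle2 (0.98), Evpl (0.98), Gm29530 (0.97), Rpusd3 (0.96) and Lonp1 (0.96). The 5 nearest to Rabep2 were all opposite skeletal muscle genes, Myhas (0.98), Ube2c (0.97), Gm13938 (0.97), Gm26604 (0.96) and A930016O22Rik (0.94). All points share depth and library composition, and low rows carry more counting error.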

How the data were processed

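RNA was sequenced from 12 mouse nasal libraries. Per the submitters' processing notes, the authors used FastQC, Trim Galore, STAR, HTSeq and mm10, and deposited 1 table of gene counts. Which versions, annotation and strand setting were used is not given in the sources used here. Without that setting, a row and the gene opposite it cannot be told apart where exons overlap.

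The 4 rows, the gene lists and the tests were chosen with earlier results of these data known. Rows were placed in GENCODE M21 (GRCm38) with bedtools 2.31.1 and Python 3.11.15, and a row was taken as opposite a gene where their exons overlapped on opposite strands by at least 50 bases. Sequences are from that genome, and promoters from RefSeq.

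In R 4.3.3, edgeR 4.0.16 filtered rows with filterByExpr, leaving 13181, scaled with TMM, and fitted 1 quasi-likelihood model with the group as its term to all 12 libraries. Rows were called where the p adjusted over all tested rows (Benjamini-Hochberg) was under 0.05. Log2 values used a prior count of 2. The p-values measure the spread between these libraries, which may be technical. The fit was tested on simulated data. Counting intervals and floors cover counting error only.

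Named rows were the 4, the genes opposite and rows overlapping them. In each of 5 skeletal muscle lists they were the called rows and up to 4 with the highest level, and for each of the 4 the 5 rows nearest by correlation. Named from these were those a result turned on. Alternatives were DESeq2 1.42.0, limma-voom (limma 3.58.1), other scaling, filters and prior counts, the compared libraries alone, a replicate block, the muscle level as a covariate and each library left out. Replicate libraries of 1 group differed by 3.17 to 22.4 times the counting variance, so none was a copy.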

Additional observations from a re-analysis of the deposited data

Results flagged for a closer look

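Of 127 groups of 4 values examined, 21 had a library far from the other 3. The limit used is set at about 1 in 20 for independent, normally distributed values. Many of these rows vary together over the same libraries, so the 21 are not read against that rate. In 12 of the 21 the library was day 10 replicate 1. It stood at 731 CPM in Rabep2 (next 41.9), 258 in A930016O22Rik (14.8), 198 in Gm13938 (8.16), 192 in Ube2c (5.65), 115 in Myhas (0), 104 in Gm49540 (6.90), 71.0 in Gm26604 (0.628), 21.1 in Gm17224 (2.75) and 10.8 in Gm37759 (1.26), all of them rows that carried the muscle level or Rabep2. It also stood at 151 CPM in Clvs1 (63.4), 56.6 in Pgam2 (35.2) and 23.7 in Asph (13.8).

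Vehicle replicate 4 stood apart in 4, at 41.7 CPM in A930016O22Rik (next 8.63), 31.3 in Ube2c (3.17), 23.2 in Myhas (0.453) and 194 in Mef2c (159). The other 5 were Tpm1 in vehicle replicate 5 (8.12 CPM, next 16.3), Klhl31 in vehicle replicate 2 (7.88, next 13.4), Pfkm in day 5 replicate 8 (35.8, next 28.5), Apol6 in day 5 replicate 6 (2.40, next 6.37) and Mhrt in day 10 replicate 3 (3.14, next 8.74). None of the 4 rows described here had such a library in any group.

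Day 10 and day 5 of KDP20 differed by edgeR's test of day 10 against day 5, the comparison given above, on the log2 scale by -1.70 for Gm48752, -1.20 for Gm32312, 0.95 for Atp2a1, -0.62 for Mybph, 0.73 for Casq1, -1.05 for Clvs1 and 0.92 for Klhl30.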

How the results depend on the processing

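The direction of the 4 rows rarely changed. Of 260 values of the 4 rows under the other settings, 190 kept their direction and their side of the threshold, 65 lost the call and 5 changed sign. Of 12 with the 4 libraries left out, 8 did so, 4 lost the call and none changed sign. Every sign change was in a value that was not called. Gm32312 for day 10 against vehicle was at -0.65 with the replicate block. Gm15943 for day 10 against day 5 was at -0.0072 with the muscle covariate, and at -0.0041, -0.031 and -0.066 without day 5 replicate 7, day 5 replicate 8 and day 10 replicate 5 (range over all 12 such fits -0.066 to 0.11). The cause was not tested.

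The number of rows called moved more. For day 5 against vehicle (87) it was 278 with no filter, 135 with a filter of 10 CPM, 511 by DESeq2, 284 by limma-voom, 656 in the 8 compared libraries, 54 with the muscle covariate, 17 with that level read from own rows, and 5 (without day 5 replicate 5) to 569 (without day 10 replicate 1) with 1 library left out. For day 10 against vehicle (933) it was 423 in the 8 compared libraries, 9 with the own-row level, 2282 with the 4 libraries left out, and 95 (without day 10 replicate 5) to 2684 (without day 10 replicate 1). For day 10 against day 5 (1337) it was 879 with the muscle covariate, 2075 with the 4 left out, and 623 (without day 10 replicate 5) to 2689 (without day 10 replicate 1).

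With replicate number as a block, 33 rows were called for day 5 against vehicle and 1701 for day 10 against vehicle. Same-numbered libraries correlated in their deviations at only -0.089 to 0.12, over 1 or 2 shared numbers a comparison. That is too few to decide whether the numbers pair the libraries, and the main fit took the libraries as unpaired.

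Read from own rows, the muscle level was 4.18, 4.03 and 4.01 in vehicle replicates 2, 5 and 6, 4.10 and 4.09 in day 5 replicates 5 and 7, and 4.31, 4.10 and 4.15 in day 10 replicates 2, 3 and 5. In the other 4 it was 4.08 in vehicle replicate 4, 4.17 and 4.26 in day 5 replicates 6 and 8 and 4.14 in day 10 replicate 1. The 2 readings average different rows, so their levels are not compared. Depth limits Gm48752 and Gm32312 most, with as few as 4 counts in a library.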
